A study of Mus musculus with 10 samples.

Results

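The genes described are 10. They encode the secreted Wnt ligands Wnt4, Wnt7a, Wnt7b, Wnt9a and Wnt9b, the secreted Wnt-binding proteins Frzb, Sfrp1 and Wif1, and Dkk3 and Dkkl1, secreted relatives of the Dickkopf antagonists. They were taken by symbol from a count table of 14276 genes, and all 10 were found. Their choice was made with the difference between the groups in these same libraries in view, in a fit with the title code B1 or B2 as a term. That difference is therefore given below as a description, without a p-value. The tests given are of other contrasts and of pathway genes outside the 10.

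The libraries were made from total RNA of cerebral cortex of C57BL/6 mice aged 3 months, after depletion of ribosomal RNA. The 5 libraries labelled BrapcKO (conditional knockout of Brap, which encodes a BRCA1-associated ubiquitin ligase) comprise 3 of genotype flox/ko Cre+ (04, 07 and 21) and 2 of genotype flox/flox Cre+ (05 and 06). The 5 control libraries comprise 3 of genotype flox/wt Cre- (08, 22 and 23) and 2 of genotype flox/flox Cre- (09 and 24). A flox allele carries recombination sites for the Cre enzyme, ko stands for a knockout allele and wt for wild type. Which cells express Cre and which exons it removes are not in the labels. Since every library labelled BrapcKO is Cre+ and every control Cre-, Cre and knockout cannot be told apart. Whether libraries come from separate animals is not stated either, and p-values then measure only the spread among these libraries, which may be technical.

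Wnt proteins are lipid-modified signals that bind Frizzled receptors together with LRP5 or LRP6, which stabilises beta-catenin and switches on target genes such as Axin2, or act through other routes that shape the cytoskeleton. The secreted Frizzled-related proteins, among them Frzb and Sfrp1, and Wif1 bind Wnt proteins outside the cell, whereas the classical Dickkopf proteins bind the LRP receptors. Dkk3 and Dkkl1 are divergent relatives of that family, and their action on Wnt signalling is less settled. Both are counted among the antagonists below by family only. In brain, Wnt7a and Wnt7b are known for their part in forming the blood-brain barrier and synapses.

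Promoter sequence could be read for 7 of the 10 genes (all except Wnt7b, Sfrp1 and Dkk3), as the 250 bases before the RefSeq start in GRCm38.p6. In the GENCODE annotation exons begin earlier in some of these windows, 21 bases into that of Frzb and at the first base of that of Dkkl1, so these windows are not purely upstream sequence. The windows of Wnt9b, Wnt9a and Wnt7a are shown because these 3 ligands carry the contrast described below, Wnt9b being higher and its close relative Wnt9a and Wnt7a lower in the libraries labelled BrapcKO. The windows are chr11:103749822-103750071, minus strand (Wnt9b), chr11:59306680-59306927, plus strand (Wnt9a) and chr6:91411364-91411603, minus strand (Wnt7a), each ending where the first annotated exon begins. Capitals mark the GC box (GGGCGG on either strand) and, once in Wnt9a, the E-box (CACGTG), and neighbouring boxes may touch or overlap.
Wnt9b: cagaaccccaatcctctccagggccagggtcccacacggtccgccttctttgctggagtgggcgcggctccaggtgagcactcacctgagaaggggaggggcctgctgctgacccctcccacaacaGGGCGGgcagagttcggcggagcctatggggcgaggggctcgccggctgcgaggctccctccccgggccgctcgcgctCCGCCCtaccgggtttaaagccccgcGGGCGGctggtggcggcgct
Wnt9a: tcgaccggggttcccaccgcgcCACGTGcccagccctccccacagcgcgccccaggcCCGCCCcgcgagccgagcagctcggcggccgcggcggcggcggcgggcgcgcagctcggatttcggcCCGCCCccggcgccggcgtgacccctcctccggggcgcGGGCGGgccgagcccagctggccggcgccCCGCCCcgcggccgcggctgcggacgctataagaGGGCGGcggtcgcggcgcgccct
Wnt7a: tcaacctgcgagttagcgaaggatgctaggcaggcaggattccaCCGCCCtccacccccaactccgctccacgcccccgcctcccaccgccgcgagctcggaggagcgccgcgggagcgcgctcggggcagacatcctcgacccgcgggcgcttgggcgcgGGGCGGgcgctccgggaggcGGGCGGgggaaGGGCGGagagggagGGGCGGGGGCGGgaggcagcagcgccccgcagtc
The full 250-base windows of these genes held 3, 5 and 6 GC boxes, in the order shown, and Wnt4 held 8, Wif1 2, Frzb 1 and Dkkl1 0. A GC box was present in 32.7% of the 32851 promoter windows of this length. The TCF/LEF letters searched (CTTTGAT and CTTTGAA, both strands), found in 7.48% of all windows, were in none of the 7 windows. The AP-1 letters (TGAGTCA and TGACTCA, 4.46% of windows) and the cyclic AMP element (TGACGTCA, 1.55%) were likewise in none of the 7, while the TATA letters (TATAAA, 12.4%) and a second E-box (6.02%) were found once each in Wif1. GC content ran from 52.4% (Dkkl1) to 85.2% (Wnt4), against a median of 52.4% over all windows. These matches describe letters in the windows and show no binding.

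Total counts ran from 17188901 to 28991874 per library, so that 1 CPM (a read count scaled to the library's total) rested on 17.2 to 29 counts. The 4 libraries with title code B2 (BrapcKO 21 and control 22, 23 and 24) were deeper than the 6 of B1, and the labels do not say what the code means. Y-linked genes were high in BrapcKO 05, 06, 07 and 21 and in control 23, with a mean score of 5.84 to 6.08 on the log2 scale, and at background in the others (-1 to -0.83), so sex was uneven between the groups. The targeted gene, Brap, showed no drop under the knockout label. It stood at 89 to 110 CPM there and at 76.7 to 98.6 CPM in control libraries (log2 difference 0.23, SE 0.1, edgeR adjusted p = 0.18). A count over the whole gene can miss the removal of a few exons, so this value leaves the labels unchecked, and each direction below rests on them.

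Compared per kilobase of exon, the scale on which genes can be set beside each other, Dkk3 was by far the most abundant of the 10, at 75.6 ± 11 CPM per kb in libraries labelled BrapcKO and 94.5 ± 9.03 CPM per kb in control libraries (SD, n = 5 each). Among the ligands Wnt7b led, at 8.84 ± 1.33 CPM per kb in libraries labelled BrapcKO and 7.77 ± 2.86 CPM per kb in control libraries. In the libraries labelled BrapcKO the order then ran Dkkl1 (3.32 CPM per kb), Wnt4 (3.27), Sfrp1 (2.62), Wnt9a (2.55), Frzb (1.84), Wnt7a (1.74), Wnt9b (0.516) and Wif1 (0.324). There only Dkk3 from Wnt7b, Wnt7b from Dkkl1, and Wnt7a from Wnt9b were separated by more than the range of their libraries, and every other pair of neighbours overlapped. In control libraries the order was Dkk3, Dkkl1 (9.22), Wnt7b, Frzb (7.2), Sfrp1 (5.19), Wnt9a (4.64), Wnt7a (3.23), Wnt4 (2.62), Wif1 (0.378) and Wnt9b (0.049). From Dkkl1 to Wnt4 each gene overlapped its neighbour in control libraries, and Dkk3, Wif1 and Wnt9b stood apart from theirs.

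**Figure D1:**
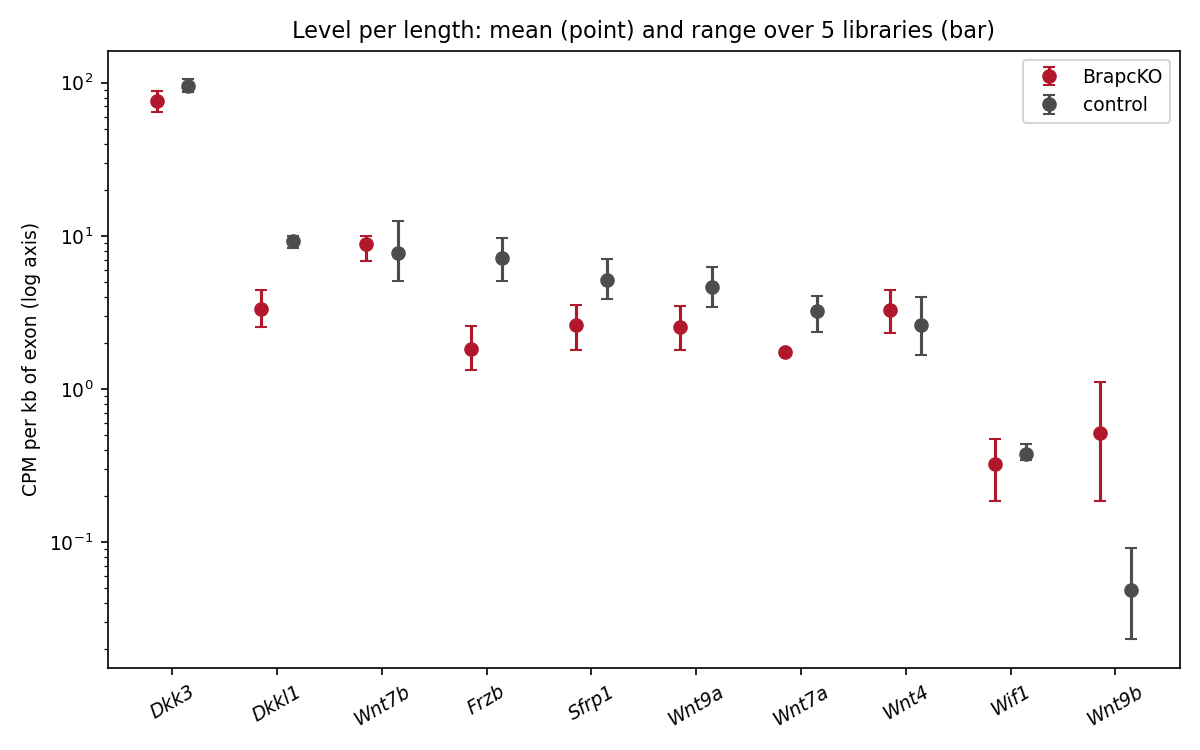
CPM per kb of exon (log axis) of the 10 genes, ordered by their control mean; points are means of 5 libraries and bars the range, with libraries labelled BrapcKO left of control. Dkk3 lies at the top, at 75.6 CPM per kb in libraries labelled BrapcKO and 94.5 in control. Wnt9b stands at 0.516 in libraries labelled BrapcKO and at 0.049, the bottom, in control, and Frzb and Dkkl1 lie lower in libraries labelled BrapcKO.

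Summed over the 14 Wnt ligands in the table, the level per length was 28.4 ± 1.58 CPM per kb in libraries labelled BrapcKO and 27.3 ± 2.98 CPM per kb in control libraries (SD, n = 5 each), with ranges of 26 to 30.1 and 24.3 to 31.2 that overlapped. The sum was thus close in both groups. The shares of Wnt7a and Wnt9a in it were further apart, but both genes were chosen on the group difference, so nothing is read from that. Wnt7a made up 6.15 ± 0.334% of it in libraries labelled BrapcKO and 11.9 ± 2.63% in control libraries, and Wnt9a made up 9 ± 2.55% in libraries labelled BrapcKO and 17 ± 3.06% in control libraries. Wnt7b was the largest share of the 5 in each group, at 31 ± 3.16% in libraries labelled BrapcKO and 28 ± 7.65% in control libraries.

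Wnt9b, a ligand best known from kidney and face development, had the largest difference of the 10. It lies at chromosome 11, 103727364 to 103749821, minus strand (GRCm38). Its level was 1.3, 0.842, 1.18, 3.27 and 5.06 CPM in BrapcKO 04, 05, 06, 07 and 21, against 0.153, 0.412, 0.208, 0.105 and 0.231 CPM in control 08, 09, 22, 23 and 24. Every library labelled BrapcKO lay above every control library, and BrapcKO 07 and 21 lay well above the other 3. The raw counts behind these levels were small, 275 in all in the libraries labelled BrapcKO and 26 in all in control libraries. BrapcKO 21 alone held 143 of the 275. The ratio of these summed counts after division by total counts was 12.3. The fitted log2 difference was 3.72 (SE 0.54, n = 5 each), and 2.53 without BrapcKO 21 and 4.43 without control 09. All 5 control libraries lay under the lowest level at which genes entered the table (0.582 CPM in at least 5 libraries), so Wnt9b is there only through the libraries labelled BrapcKO and had to separate the groups.

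Wnt3, a ligand of the beta-catenin route that is not among the 10, begins 24.3 kb from the start of Wnt9b and is read in the opposite direction (chromosome 11, 103774150 to 103817957, plus strand). It was at 3.84, 2.75, 2.93, 2.74 and 3.4 CPM in BrapcKO 04, 05, 06, 07 and 21, against 1.22, 0.823, 2.22, 1.57 and 0.925 CPM in control 08, 09, 22, 23 and 24. The groups did not overlap, and Wnt3 rose in the libraries labelled BrapcKO with a log2 difference of 1.38 (SE 0.28, edgeR adjusted p = 0.01), a call that was lost without control 09 (1.21, adjusted p = 0.057). The other 3 measured genes within 200 kb of Wnt9b, looked at after its values were seen, did not pass the threshold. Gosr2 and Nsf, both of vesicle traffic, differed by 0.19 and -0.06, and Rprml by 0.33 (adjusted p = 0.17, 0.78 and 0.25).

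Wnt7a (chromosome 6, 91363981 to 91411363, minus strand) was lower in the libraries labelled BrapcKO and nearly level among them. It stood at 5.55, 5.5, 5.52, 5.72 and 5.38 CPM in BrapcKO 04, 05, 06, 07 and 21, against 7.53, 8.44, 11.3, 11.1 and 12.8 CPM in control 08, 09, 22, 23 and 24. The spread was 2.18% of the mean in the libraries labelled BrapcKO and 21.4% in control libraries, where the 3 libraries of code B2 were the high ones. The levels in BrapcKO 04, 05, 06, 07 and 21 rested on 107, 98, 117, 117 and 152 counts. At such counts counting error alone exceeds a spread of 2.18%, so nothing is read from their evenness. The groups did not overlap (log2 difference -0.74, SE 0.14).

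Wnt9a, the closest relative of Wnt9b and known from joint formation, differed in the other direction from it. It lies on the same chromosome but far away, at 59306928 to 59333552 on the plus strand. It stood at 7.78, 11.6, 10.4, 6.74 and 5.98 CPM in BrapcKO 04, 05, 06, 07 and 21, against 21, 14.8, 11.5, 15.8 and 14.2 CPM in control 08, 09, 22, 23 and 24. Only BrapcKO 05 and control 22 touched, at 11.6 and 11.5 CPM (log2 difference -1.05, SE 0.18). BrapcKO 07 and 21, the libraries with most Wnt9b, had the least Wnt9a.

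The remaining ligands overlapped between the groups. Wnt4 (chromosome 4, 137277489 to 137299726, plus strand), known from kidney and gonad development, was at 9.7, 14.5, 12.6, 13.3 and 18.6 CPM in BrapcKO 04, 05, 06, 07 and 21, against 16.6, 9.78, 7.07, 9.7 and 11.8 CPM in control 08, 09, 22, 23 and 24. Its log2 difference of 0.32 (SE 0.23) turned to -0.08 without BrapcKO 21, its highest library, and was 0.66 without control 08. Wnt7b (chromosome 15, 85535437 to 85582473, minus strand) was at 33.5 to 49.2 CPM in libraries labelled BrapcKO and 24.9 to 61.2 CPM in control libraries, a log2 difference of 0.31 (SE 0.23), which was 0.12 without control 09. An antisense gene overlaps 2222 bases of Wnt7b. No source used here gives the strand setting of the counting, so reads of the antisense gene cannot be told apart from those of Wnt7b.

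Among the antagonists Frzb, also called sFRP3, showed the largest difference. It lies at chromosome 2, 80411970 to 80447625, minus strand. Frzb stood at 5.39, 8.37, 4.3, 7.33 and 4.46 CPM in BrapcKO 04, 05, 06, 07 and 21, against 16.4, 23.2, 24.8, 20.9 and 31.3 CPM in control 08, 09, 22, 23 and 24. The highest library labelled BrapcKO lay far below the lowest control library, and the fit put Frzb 3.83-fold lower (log2 difference -1.94, SE 0.24).

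Sfrp1, a Frizzled-related protein made by neural progenitors and glia, was lower by less. At chromosome 8, 23411502 to 23449632, plus strand, it stood at 14.4, 15.4, 7.84, 11.3 and 8.25 CPM in BrapcKO 04, 05, 06, 07 and 21, against 19.8, 17, 21.2, 24.4 and 31.1 CPM in control 08, 09, 22, 23 and 24. The groups did not overlap but came close between BrapcKO 05 and control 09. The log2 difference was -0.95 (SE 0.25), and -0.6 without BrapcKO 21.

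Dkkl1, the Dickkopf-like protein soggy, was the most even of the 10 among control libraries. It lies at chromosome 7, 45207519 to 45212147, minus strand. Dkkl1 stood at 4.61, 5.56, 6.94, 4.98 and 4.04 CPM in BrapcKO 04, 05, 06, 07 and 21, against 14.8, 15.8, 13.2, 14.3 and 14.5 CPM in control 08, 09, 22, 23 and 24. The spread was 21.2% of the mean in libraries labelled BrapcKO and 6.41% in control libraries, and the fit put Dkkl1 2.99-fold lower in the libraries labelled BrapcKO (log2 difference -1.58, SE 0.14).

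Dkk3 and Wif1 overlapped between the groups. Dkk3 (chromosome 7, 112116017 to 112159057, minus strand), the abundant member, was at 296, 231, 291, 215 and 238 CPM in BrapcKO 04, 05, 06, 07 and 21, against 357, 298, 293, 343 and 296 CPM in control 08, 09, 22, 23 and 24 (log2 difference -0.36, SE 0.11). The overlap was slight, with BrapcKO 04 beside the lowest control libraries. Wif1 (chromosome 10, 121033960 to 121100650, plus strand) was scarce, at 0.449 to 1.14 CPM in libraries labelled BrapcKO and 0.838 to 1.07 CPM in control libraries, on 8 to 25 counts, and its log2 difference was -0.24 (SE 0.29). It ranged from -0.37 to -0.12 on leaving out single libraries, the smallest without BrapcKO 05, and was 0.05 when the Y-linked score was added.

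**Figure D2:**
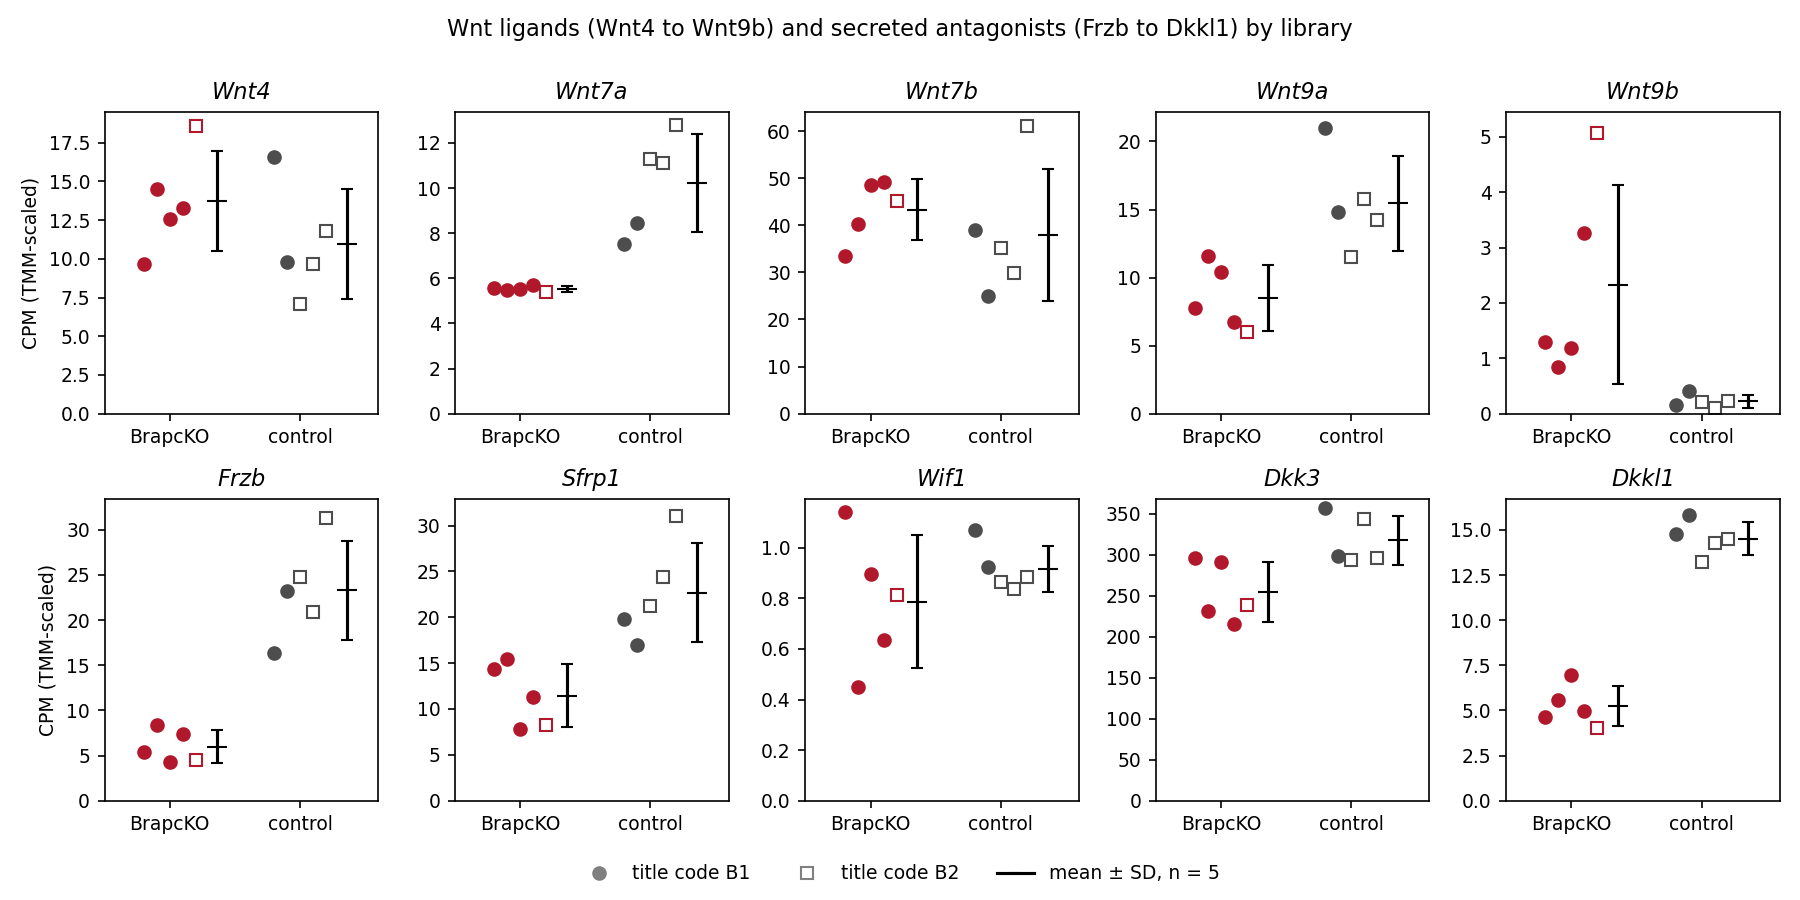
TMM-scaled CPM of each gene in each library (linear axes from 0), libraries labelled BrapcKO left and control right; filled circles are code B1, open squares code B2, and the bar is the mean ± SD of 5 libraries. Frzb, Dkkl1, Sfrp1 and Wnt7a lie lower without overlap in the libraries labelled BrapcKO, Wnt9b lies higher without overlap, and the other 5 genes overlap.

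Counted together, 5 of the 10 genes (Wnt7a, Wnt9a, Frzb, Sfrp1 and Dkkl1) were past an adjusted p of 0.05 downwards and 1 (Wnt9b) upwards in the fit that guided their choice, where 8.07% of all genes were called, 4.95% lower and 3.12% higher. Groups did not overlap in 4 genes downwards and 1 upwards, against 3.71% and 3.12% of all genes (6.82% in either direction). Without BrapcKO 21 the counts past the threshold were 3 lower and 0 higher. Since the genes were chosen on this contrast, nothing is read from these counts. The median log2 difference was -0.95 over the 5 antagonists and 0.31 over the 5 ligands, against 0.01 over all genes. All 5 antagonists were below 0, Wif1 by less than its SE (-0.24, SE 0.29). These medians are of the same chosen genes, so nothing is read from them about antagonists or ligands at large.

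The title code was not the contrast on which the genes had been chosen. It was a term of that fit and uneven over the groups, so its test is not independent of the choice. None of the 10 was called between B2 and B1 with group as a term (edgeR quasi-likelihood test, 0 called, and 0 by DESeq2 and limma-voom), while 25.1% of all genes were. A gene that was not called may still differ. At an unadjusted p under 0.05 there were 2 of the 10, where 37% of all genes were past it, namely Wnt7a (0.33 higher in B2, SE 0.14, adjusted p = 0.12) and Wnt9a (-0.46, SE 0.18, adjusted p = 0.088). Without BrapcKO 21 the call for Wnt7a was made (0.56, SE 0.15, adjusted p = 0.021).

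Within each title code the 6 genes named in the counts above kept their direction. For Frzb, Dkkl1, Sfrp1, Wnt7a and Wnt9b any split of the libraries had to keep it, since their groups did not overlap. Nothing is read from it, as all 6 were chosen on this contrast. The differences within B1 (4 libraries labelled BrapcKO and 2 control) were -1.64 for Frzb, -1.46 for Dkkl1, -0.97 for Wnt9a, -0.59 for Sfrp1, -0.52 for Wnt7a and 2.53 for Wnt9b. Within B2 they were larger in size, at -2.52, -1.8, -1.21, -1.63, -1.12 and 4.77 in the same order, but rest on BrapcKO 21 as the only library of its label there. No gene's difference changed between the codes at an adjusted p under 0.05 in an edgeR interaction test (0 of the 10 and 0% of all genes), and 4 of the 10 had an unadjusted p under 0.05, as had 7.49% of all genes. With BrapcKO 21 alone in its arm, this test takes that library to vary like those of the other groups, and nothing is read from the count, since the genes were chosen on the group difference in these libraries. The 4 were Wnt4 (0.022), Wnt7a (0.027), Sfrp1 (0.027) and Wnt9b (0.049).

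By genotype, with the code as a term, libraries flox/ko Cre+ over libraries flox/wt Cre-, and flox/flox Cre+ over flox/flox Cre-, gave much the same size for Frzb (-1.79 and -2.03), Sfrp1 (-0.9 and -0.98) and Wnt7a (-0.7 and -0.74). For the Wnt9 pair the sizes were further apart. Wnt9b differed by 4.51 (SE 0.55) in the first of these comparisons and by 2 (SE 0.7) in that of the flox/flox libraries, and Wnt9a by -1.33 (SE 0.17) and -0.58 (SE 0.22). The edgeR test of these differences of differences called 0 of the 10 and 0% of all genes, with adjusted p = 0.79 for both genes of the pair. The unadjusted p was 0.019 for Wnt9b and 0.016 for Wnt9a. No other of the 10 had an unadjusted p under 0.05, which 6.12% of all genes had. Nothing is read from these values, since the genes were chosen on the group difference in these libraries. The high Wnt9b levels were those of flox/ko Cre+ libraries 07 and 21 (3.27 and 5.06 CPM). Library 04 of that genotype (1.3 CPM) was near flox/flox Cre+ libraries 05 and 06 (0.842 and 1.18 CPM).

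**Figure D3:**
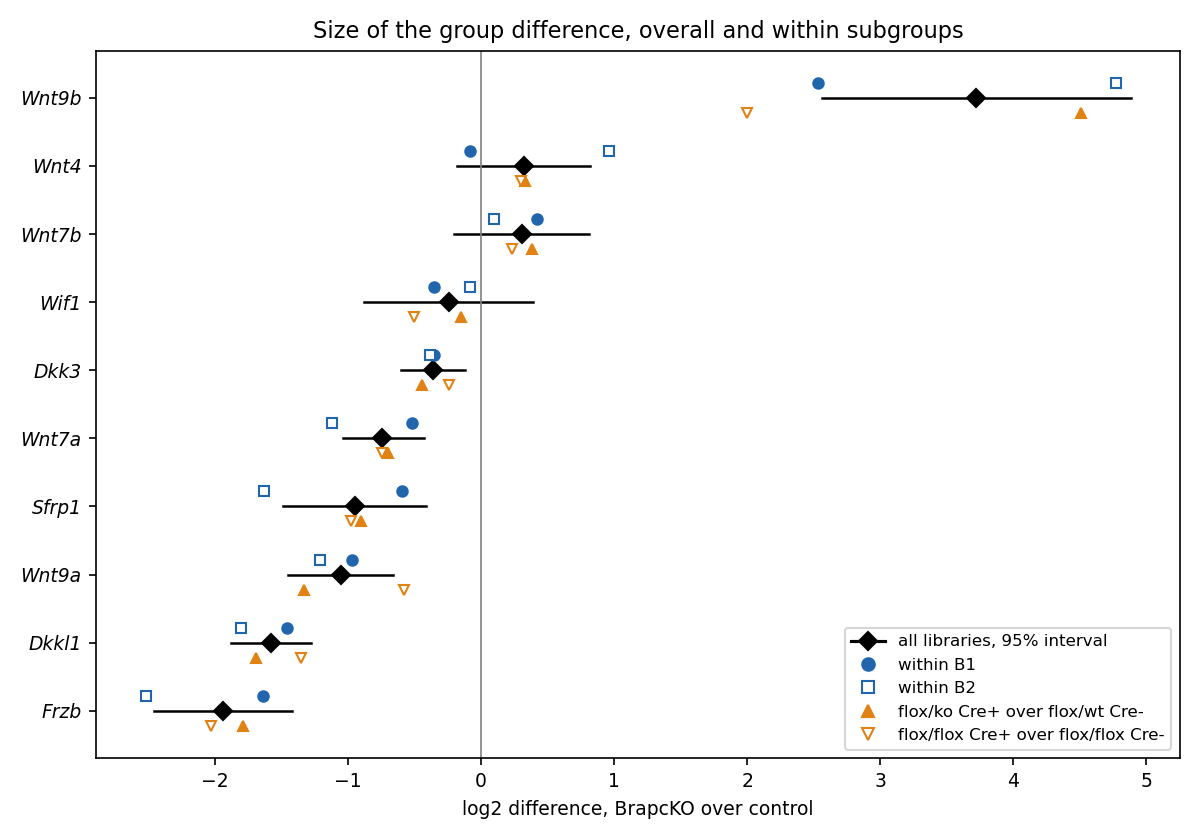
Log2 difference of libraries labelled BrapcKO over control for each gene; diamonds with bars are the fit over all libraries with its 95% interval, blue marks the values within title codes and orange those by genotype pair. Wnt9b lies to the right of 0 in every subgroup (2 to 4.77), Frzb, Dkkl1, Wnt9a, Sfrp1 and Wnt7a lie to the left in every subgroup, and Wnt4 changes side between the codes (-0.08 and 0.96). For Wnt9b, Frzb, Dkkl1, Sfrp1 and Wnt7a the side was fixed in advance, since their groups did not overlap.

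The rest of the pathway was read in 93 further genes, listed by their place in the pathway. The lists were drawn up with earlier results of these data known and leave out the 10 genes chosen for their differences. Of these 2 rose and 4 fell in the libraries labelled BrapcKO, 87 did not pass the test, and the median log2 difference was -0.08. The called share was thus not above the 8.07% of all genes, and without BrapcKO 21 the counts were 1 higher and 1 lower. The lists held 104 genes outside the 10, and 93 were in the count table. Wnt1, Wnt3a, Wnt8a, Wnt8b and Wnt11 were not among the 14 Wnt ligands of that table. Dkk1, Dkk4, Sost, Rspo4 and Sp5 were not analysed here either.

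Axin2, a scaffold of the complex that destroys beta-catenin and itself a standard target gene of the pathway, fell. It was at 26.8, 27.7, 27.1, 22.6 and 18.4 CPM in BrapcKO 04, 05, 06, 07 and 21, against 34.9, 33.8, 32.5, 34.1 and 28.7 CPM in control 08, 09, 22, 23 and 24, with no overlap. The log2 difference was -0.54 (SE 0.11, edgeR adjusted p = 0.0089). Without BrapcKO 21 it was -0.41 (adjusted p = 0.084), with group as the only term -0.42 (0.073) and with the Y-linked score added -0.58 (0.065). It was the only one called among 13 target genes, whose median was -0.06, and among 18 cytoplasmic components, whose median was -0.07.

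Of the 6 other secreted antagonists measured 1 rose, Sfrp2, another Frizzled-related protein, and 0 fell (median -0.44). Sfrp2 was at 1.19, 1.63, 2.64, 1.86 and 6.98 CPM in BrapcKO 04, 05, 06, 07 and 21, against 1.12, 0.669, 1.35, 1.36 and 1.66 CPM in control 08, 09, 22, 23 and 24. The groups overlapped and BrapcKO 21 stood far above the rest. The log2 difference of 1.61 (SE 0.3, adjusted p = 0.0066) was 1.03 without that library (adjusted p = 0.19), 1.22 with group as the only term (0.18) and 1.41 with the Y-linked score (0.14). Among 9 other ligands Wnt3 alone was called (median 0.23).

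Among 6 genes of Wnt release and agonists 1 fell and 0 rose (median -0.25). This was Rspo1, an R-spondin that strengthens Wnt signals at the receptor, at 2.35 to 4.83 CPM in libraries labelled BrapcKO and 4.51 to 9.98 CPM in control libraries (-1.09, SE 0.27, adjusted p = 0.03). Its call was lost without control 09 (-0.85, adjusted p = 0.18), BrapcKO 06, 07 or 21 (adjusted p = 0.058, 0.052 and 0.099), with group as the only term (0.061) and with the Y-linked score (0.075). Of 26 receptors and co-receptors 1 fell and 0 rose (median -0.18), namely Ptk7, a receptor-like pseudokinase, at 12.2 ± 1.41 CPM in libraries labelled BrapcKO and 16 ± 1.63 CPM in control libraries (-0.44, SE 0.12, adjusted p = 0.035). The call of Ptk7 was lost (adjusted p = 0.06 to 0.2) on leaving out any of control 09, control 22, control 23, BrapcKO 04, BrapcKO 07 or BrapcKO 21, with library size scaling (0.056), with group as the only term (0.075) and with the Y-linked score (0.14).

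Of 10 planar polarity genes 1 fell and 0 rose (median -0.06). Prickle1, a cytoplasmic protein of that route, was at 76 to 100 CPM in libraries labelled BrapcKO and 97.3 to 146 CPM in control libraries (-0.6, SE 0.11, adjusted p = 0.0053), and it alone of the 6 called genes kept its call under every alternative tried. None of 13 nuclear factors passed (0 by edgeR, median -0.09). The 2 with the smallest p were Tle4, a corepressor also used as a deep-layer marker, and Bcl9, a beta-catenin cofactor, at -0.26 and -0.39 (adjusted p = 0.056 and 0.092), and DESeq2 called both (adjusted p = 0.012 and 0.045).

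**Figure D4:**
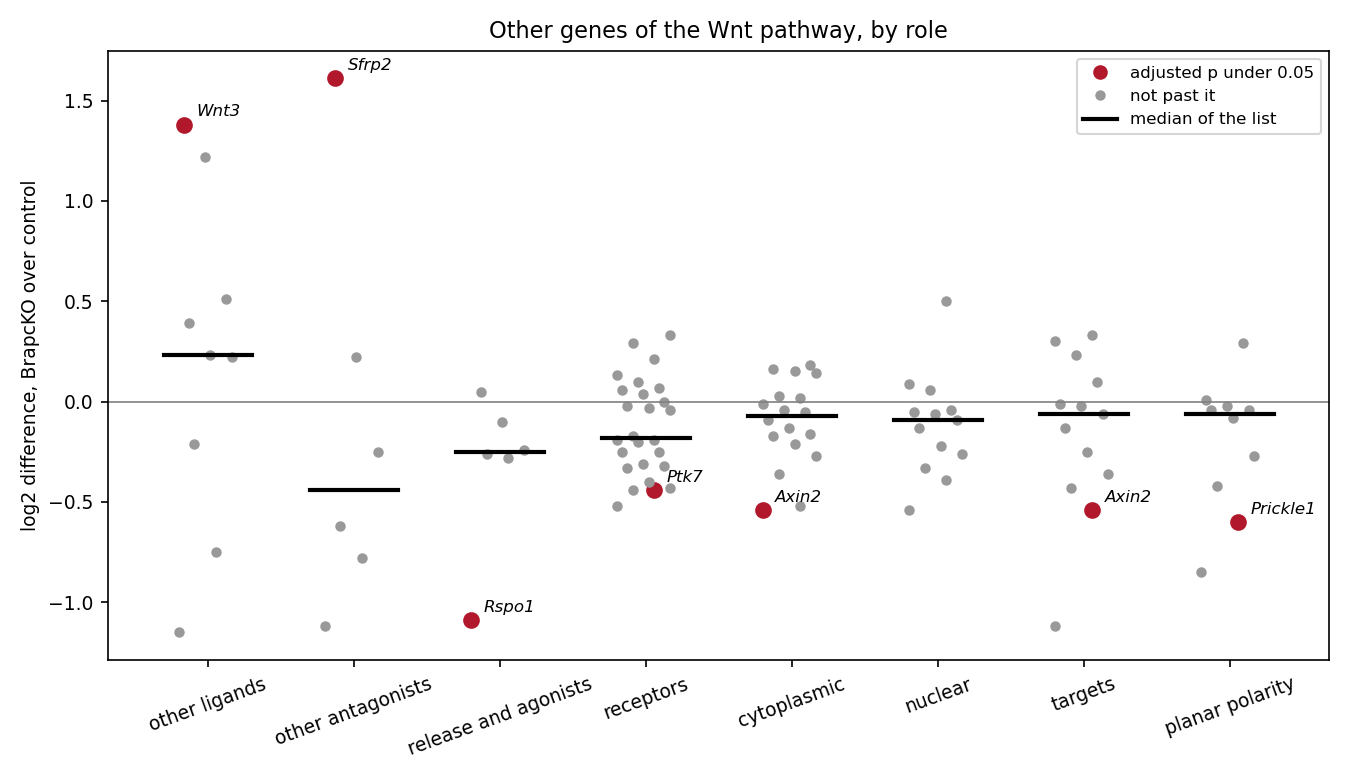
Log2 difference of libraries labelled BrapcKO over control for 93 Wnt pathway genes outside the 10, by role; large red points are past an adjusted p of 0.05 and bars are list medians, and a gene on several lists appears in each. The 6 named genes stand out (Wnt3 and Sfrp2 up, Rspo1, Ptk7, Axin2 and Prickle1 down), while the medians lie between -0.44 and 0.23.

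Several of the lower genes had alike patterns across the 10 libraries, which share the groups and codes. Pearson's r of log2 CPM was 0.93 between Wnt7a and Frzb, 0.91 between Frzb and Sfrp1, 0.91 between Frzb and Dkkl1 and -0.92 between Wnt9a and Wnt9b. After removing group and code it was 0.71, 0.71, 0.01 and -0.7 in the same order. Little was thus left between Frzb and Dkkl1 after removal, as between Wnt7a and Wnt9a (0.62 before, -0.01 after), Frzb and Wnt9a (0.74 before, -0.11 after) and Sfrp1 and Dkkl1 (0.77 before, -0.15 after). Values of the opposite sign also appeared after removal, at -0.72 between Frzb and Dkk3 and -0.68 between Frzb and Wif1, which had been 0.52 and 0.15 before it. Wif1 and Dkk3 had r = 0.74, and 0.72 after removal.

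By the highest r over the 10 libraries, the genes most like Frzb were Smarca2, a chromatin remodelling ATPase, and Bean1 (0.97 and 0.969). Those most like Sfrp1 were Inhbb, an activin subunit, and Slc12a5, the neuronal potassium-chloride transporter KCC2 (both 0.974). Dkkl1 was most like Shc3, a neuronal adaptor, and Myh2, a myosin (0.986 and 0.975), Wnt7a most like Ndrg3 and Nefl, a neurofilament subunit (0.975 and 0.96), and Dkk3 most like Pip4k2b and Pex26 (0.931 and 0.917). Wnt9a was most like Adcy8, an adenylate cyclase, and Kif16b (0.964 and 0.959), Wnt9b most like Srxn1, which repairs oxidised peroxiredoxins, and Nucb2 (0.968 and 0.964), Wnt4 most like Rassf5 and Fam167a (0.855 and 0.848), Wnt7b most like Pgpep1 and Tmeff2 (0.923 and 0.917), and Wif1 most like Kif21a (0.887). After removing group and code, r over these pairs ran from 0.45 (Dkkl1 with Myh2) to 0.98 (Wnt9b with Srxn1), with 0.57 for Wnt7a with Nefl.

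Some markers of other cells and of the cortex's layers also differed between the groups. Over all genes 3.12% were called higher and 4.95% lower. Of 10 striatal markers, led by Pde10a and Penk, 7 rose and 0 fell, with a summed level of 970 to 1810 CPM in libraries labelled BrapcKO and 553 to 1210 CPM in control libraries. BrapcKO 07 and 21, highest in Wnt9b, were also highest in these markers (1480 and 1810 CPM), whereas control 22 had 1210 CPM of them, more than BrapcKO 04, 05 or 06, with Wnt9b at 0.208 CPM. Of 12 inhibitory neuron markers, led by Gad1 and Gad2, 5 rose and 0 fell, with sums of 1200 to 1950 CPM in libraries labelled BrapcKO and 948 to 1050 CPM in control libraries. Of 10 upper-layer markers, led by Mef2c and Rasgrf2, 4 fell and 0 rose, with sums of 1560 to 2250 CPM in libraries labelled BrapcKO and 1850 to 2600 CPM in control libraries. Neuronal markers of cortex were thus present in every library of each group.

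Of 9 reactive astrocyte markers, led by Gfap and Vim, 5 rose and 0 fell, at 521 to 1590 CPM in libraries labelled BrapcKO and 201 to 266 CPM in control libraries. Of 12 microglial markers, led by Csf1r, 3 rose and 0 fell, at 546 to 1540 CPM in libraries labelled BrapcKO and 380 to 407 CPM in control libraries. Both were highest in BrapcKO 05 (1590 and 1540 CPM), the library with the most Frzb, Sfrp1 and Wnt9a and the least Wnt9b of those labelled BrapcKO. Of 12 general astrocyte markers 1 fell and 0 rose, and of 10 oligodendrocyte, 8 precursor, 8 endothelial and 8 pericyte or smooth muscle markers 0 were called by edgeR. Choroid plexus and ependymal markers, led by Ttr, ran from 126 to 696 CPM in libraries labelled BrapcKO and from 58.4 to 2350 CPM in control libraries with 0 of 10 called by edgeR. Control 24, the library at 2350 CPM, was also the highest in Frzb, Sfrp1, Wnt7a and Wnt7b (31.3, 31.1, 12.8 and 61.2 CPM). It was not the highest in any other of the 10 Wnt genes. Meningeal fibroblast markers ran from 95.7 to 161 CPM in libraries labelled BrapcKO and from 126 to 144 CPM in control libraries, with 2 of 9 lower and 0 higher. Of hippocampal markers 1 of 9 rose and 1 fell, of thalamic 0 of 9 rose and 1 fell, of olfactory bulb 2 of 5 rose and 0 fell, and of deep-layer 3 of 9 rose and 1 fell. Single calls on lists this short are too few to set against the shares of all genes, and nothing is read from them. No marker on these lists was at 0 counts in any library. The part of these markers' differences in those of the Wnt genes was not tested, and in bulk tissue fewer cells of a type and less RNA per cell cannot be told apart.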

How the data were processed

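Frozen cortex was extracted with Trizol and treated with DNase, and libraries were built after ribosomal RNA depletion, per the labels' protocols. The builds mm10 and GRCm38 and the tools featureCounts, Subread, FastQC, edgeR and DESeq2 are named by the submitters' processing notes, without roles or versions. What the authors deposited is a table of whole-number counts of reads per gene, whose totals differ between libraries as unnormalised counts do. Of 14276 identifiers, 14271 matched GENCODE M21 (GRCm38), here the source of symbols, positions and exon lengths. The 10 genes and the gene lists were chosen with earlier results of these data known.

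Counts were fitted with edgeR 4.0.16 (robust quasi-likelihood, TMM scaling, terms for group and title code) in R 4.3.3, with p-values adjusted by Benjamini and Hochberg over all genes and called under 0.05. The default filter removed 0 genes. CPM uses TMM-scaled totals. Alternatives were DESeq2 1.42.0, limma-voom 3.58.1, other scalings, filters and terms, and leaving out each library. Tests of differences between title codes and genotype pairs were added after the data were seen. Named pathway genes are those called in each list (or the 2 smallest p), and likeness is the highest Pearson r among genes with a mean of 1 CPM or more, on log2 of CPM plus 0.5. The fit was also run on counts simulated without a title code effect, which does not test how it handles the uneven code.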

Additional observations from a re-analysis of the deposited data

Results flagged for a closer look

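In 38 groups of 5 libraries examined for the named genes, 2 held a library far from the others by Dixon's gap test, and chance alone gives about 5% of such groups. Sfrp2 in BrapcKO 21 stood at 6.98 CPM, against 2.64 CPM in the next library of its group. Tle4 in control 08 stood at 115 CPM, against 97.3 CPM in the next.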

How the results depend on the processing

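With group as the only term 261 genes were called higher and 356 lower, in place of 446 and 706, and 1 and 1 pathway genes outside the 10. With the Y-linked score added these were 87 and 212 genes and 1 and 1 pathway genes, with 3 of the 10 called lower in place of 5. In that fit the differences were -1.89 (SE 0.34) for Frzb, -1.72 (SE 0.19) for Dkkl1 and -1.28 (SE 0.23) for Wnt9a. They were -0.82 (SE 0.32) for Sfrp1 and -0.7 (SE 0.2) for Wnt7a. DESeq2 called 709 genes higher and 10 pathway genes lower. With at least 1 CPM in 5 libraries, 0 of the 10 were called higher because Wnt9b and Wif1 were not tested. Leaving out single libraries gave 117 to 617 genes higher and 289 to 880 lower, 1 to 3 and 1 to 7 pathway genes, 0 to 1 and 3 to 5 of the 10, and for the title code 0 to 1 of the 10 higher. The lowest counts of all genes, 117 and 289, came without BrapcKO 21, which leaves B2 with control libraries only. Without it 0 of the 10 were called higher and 3 lower, 1 pathway gene was called in each direction, and Wnt9b differed by 2.53, against 4.43 without control 09. The cause was not tested. The direction of the 6 genes called among the 10 was the same in every alternative that tested them. Since these genes were chosen on this contrast and only Wnt9a overlapped between the groups, nothing is read from that. No paired analysis was possible because the groups share no replicate number. Depth limits Wnt9b and Wif1 most, at 3 to 143 and 8 to 25 counts.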

Other observations

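Of the 93 pathway genes outside the 10, 6 were higher and 13 lower in B2 than in B1 libraries with group as a term (edgeR), 6.45% and 14%, against 13.4% and 11.8% of all genes. Wnt2b, a ligand named here after its values were seen, had the largest difference among them. It stood at 0.46 CPM in BrapcKO 21 and 1.32, 2.2 and 2 CPM in control 22, 23 and 24, all B2, against 5.6, 5.62, 5.01 and 4.4 CPM in BrapcKO 04, 05, 06 and 07 and 6.46 and 6.69 CPM in control 08 and 09, all B1. The log2 difference of B2 over B1 was -2.3 (SE 0.29, adjusted p = 6.9e-05), and between the libraries labelled BrapcKO and control it was -0.75 (adjusted p = 0.13). Also named after their values were seen, Ctnnb1, which encodes beta-catenin, and Gsk3a, a kinase that marks it for destruction, were higher in B2 by 0.52 and 0.68 (adjusted p = 0.0037 and 3.3e-05), and Apc, a scaffold of the same complex, was lower by 0.49 on the log2 scale (adjusted p = 0.00033). The labels do not say what the code stands for.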
